A study of Mus musculus with 2 samples.

Results

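The genes described here are 10 transcription factors of the T lineage, Tcf7, Lef1, Bcl11b, Gata3, Tbx21, Eomes, Tox, Satb1, Foxp3 and Id3, out of 21938 protein-coding genes on the mouse chromosomes of GENCODE vM21 (mm10). They were chosen by name. For each gene, every accessible chromatin peak that touched the gene body or the 50 kb on either side was taken, which gave 36 of 25343 peaks in 1 library and 189 of 89382 peaks in the other. A peak counted as a promoter peak when it came within 1 kb of any annotated transcription start site (TSS) of the gene. The remaining peaks in the gene body were exonic or intronic, and those outside it were flanking.

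These factors act in sequence as a blood precursor becomes a T cell and as a T cell takes up a function. Tcf7 and Lef1 encode TCF-1 and LEF-1, HMG-box proteins that open the T cell programme and mark naive and memory T cells, Gata3 and Bcl11b fix commitment to the lineage, and Satb1 organises chromatin in developing thymocytes. Tbx21 (T-bet) and Eomes are T-box factors of effector T cells and natural killer cells, Gata3 also directs helper T cells of type 2, Tox is needed for CD4+ T cells and persists in chronically stimulated CD8+ T cells, Foxp3 defines regulatory T cells, and Id3 holds E proteins in check. Most of them are not exclusive to T cells: Lef1, Satb1, Bcl11b and Id3 are also used outside the lineage.

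Accessible chromatin was measured by scFFPE-ATAC, which tags open DNA in nuclei of formalin-fixed paraffin-embedded (FFPE) tissue with barcoded Tn5 transposase and marks each cell by split-and-pool ligation. Both libraries came from FFPE spleen of C57BL/6 J mice, for which the methods state an age of 8 weeks and animals of both sexes, without tying an animal to a library. In one library the density gradient centrifugation that clears debris from the nuclei was left out, and the other was prepared in a 50 µL reaction system, although the protocol text deposited with both gives a larger tagmentation volume. There was 1 library per condition with no replicate, so no test between them was possible, and the preparation step cannot be told apart from any other difference between these libraries. The peak lists pooled all cells of a library and held neither reads nor cells, so the depth is unknown and no peak can be assigned to T cells. A locus open in few cells and a locus weakly open in many cannot be told apart here.

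The library without density gradient centrifugation had peaks covering 8.81 Mb, with a median fold enrichment (pileup at the summit over local background) of 5.24, and the 50 µL reaction system had peaks covering 38.0 Mb, with a median of 3.29. Both values depend on the number of reads, so a peak is placed below by its rank on −log10 q within its own list, where a lower percentage is a more significant peak. The markers used to check the tissue showed a promoter peak in 4 of 13 T cell, 5 of 8 B cell, 0 of 7 myeloid and 0 of 5 NK cell genes without density gradient centrifugation, and in 11, 8, 4 and 1 of them in the 50 µL reaction system. Of 5 erythroid markers, 0 and 4 had one in the same order of libraries, and of 5 endothelial and stromal markers, 2 and 3. Over all protein-coding genes the share with a promoter peak was 43.7% and 56.6%. Without density gradient centrifugation only the B cell markers exceeded this share, and the T cell markers (30.8%) lay below it. In the 50 µL reaction system only the NK cell markers lay below it.

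All 10 genes had peaks in their windows in both libraries, between 2 and 7 per gene without density gradient centrifugation and between 5 and 33 in the 50 µL reaction system. Of all protein-coding genes, 74.3% and 81.2% had a peak in such a window. The medians were 3 and 9 peaks per gene over all genes and 3.5 and 18.5 over the members. Of the 36 peaks of the first library, 7 were at promoters, 1 was exonic, 8 were intronic and 20 were flanking. Of the 189 peaks of the second, 28 were at promoters, 7 were exonic, 66 were intronic and 88 were flanking. The shorter list thus held 19.0% as many peaks as the longer one over all classes, 25% at promoters and 12.1% in introns, while over all protein-coding genes it held 33.7%, 52.8% and 19.3% as many, counting a peak once for each gene it belongs to. Some flanking peaks belonged to neighbours: 8 of the 20 and 10 of the 88 lay within 1 kb of a TSS of another protein-coding gene.

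**Figure D1:**
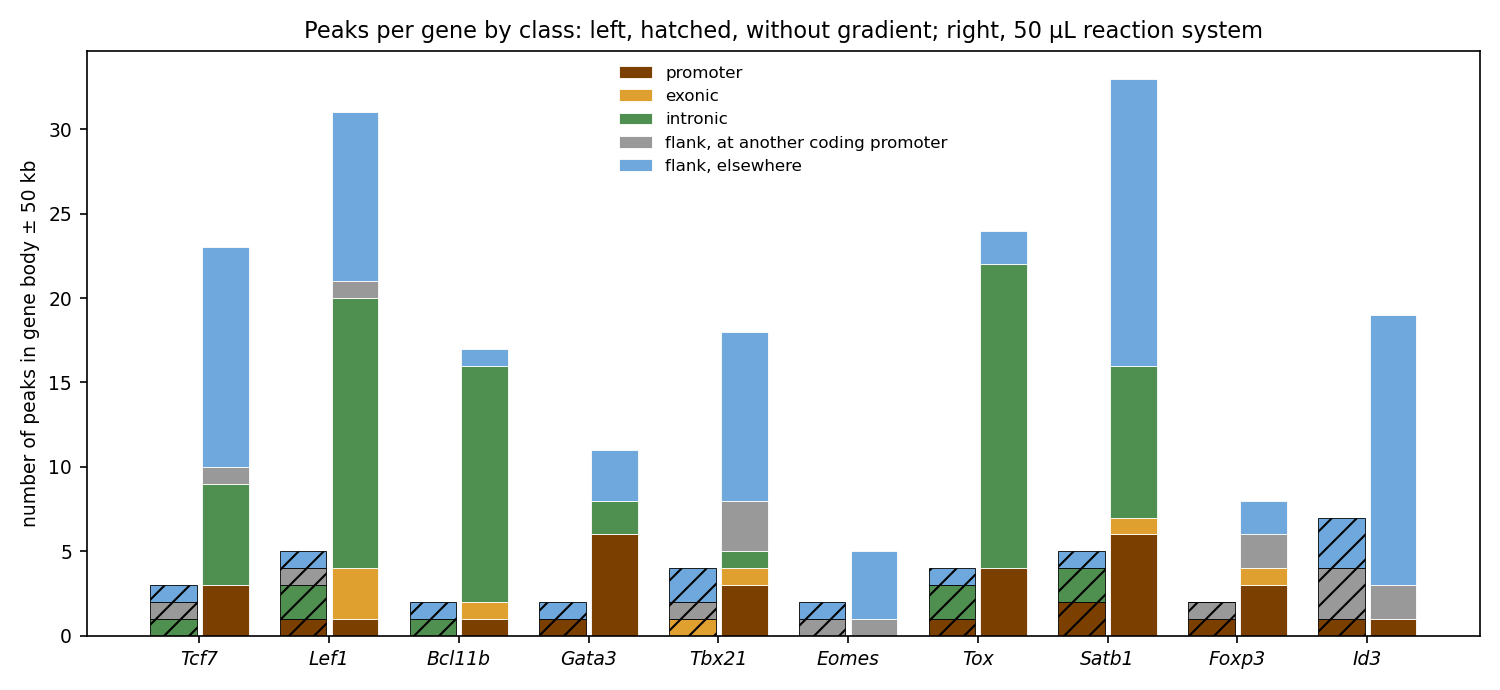
Number of peaks (vertical axis) in the gene body and 50 kb each side for each of the 10 genes, stacked by class; hatched left bars are the library without density gradient centrifugation (36 peaks) and plain right bars the 50 µL reaction system (189 peaks). Satb1 and Lef1 had the most peaks in the 50 µL reaction system, 33 and 31, and Eomes the fewest, 5, none of them at its promoter or in its body.

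Member peaks were seldom among the most significant of the shorter list. Without density gradient centrifugation, 2 of the 36 stood in its top 25% by −log10 q, the internal promoter of Gata3 and the promoter of Hadh beside Lef1, and in the 50 µL reaction system 34 of 189 did. Median fold enrichment over the members was 4.90 and 3.07, against 5.24 and 3.29 over the whole lists. By class it was 4.36 at promoters, 4.71 in introns, 4.88 upstream and 5.27 downstream without density gradient centrifugation, and 2.98, 3.07, 2.85 and 3.46 in the 50 µL reaction system, so promoters had the lowest of these medians in the first library and exceeded only the upstream peaks in the second. On −log10 q the order was another: the promoter median was 10.4, against 7.42 in introns, 8.50 upstream and 10.0 downstream without density gradient centrifugation, and 14.3 against 10.7, 12.1 and 13.5 in the 50 µL reaction system, the highest of these classes in both. When the 50 µL list was reduced to as many peaks as the shorter list, its most significant 25343, the members kept 44 peaks there against 36. The same comparison gave 92 against 88 for 18 other T cell regulators, 84 against 78 for 10 B lineage factors and 38 against 33 for 11 myeloid factors.

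A promoter peak was found at most of the genes, and which gene lacked one differed by library. Without density gradient centrifugation, 6 of 10 genes had one (60%, exact 95% interval 26.2 to 87.8%), against 43.7% of all protein-coding genes, and the genes without were Tcf7, Bcl11b, Tbx21 and Eomes. In the 50 µL reaction system 9 of 10 had one (90%, 55.5 to 99.7%), against 56.6% of all genes, and Eomes was the exception. The intervals cover counting error only. Reduced to its 25343 most significant peaks, the 50 µL list reached 8 of the 10 promoters against 45.2% of all genes, and Lef1 then lacked one as well as Eomes.

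Much of this rested on start sites inside the genes. At the annotated 5′ end alone, 3 of 10 genes (Satb1, Foxp3 and Id3; 30%, 6.67 to 65.2%) had a peak without density gradient centrifugation, against 39.6% of all genes. In the 50 µL reaction system 8 of 10 had one, all but Lef1 and Eomes, against 51.9%. Where a 5′ end had a peak, the most significant one lay 538.5 bp from it in the median of the 8 genes, against 154 bp over 11362 genes, and in 6 of the 8 it lay beyond 200 bp, against 39.6% of those genes. For members and all genes alike, this end is the outermost annotated start of any transcript, which in Tox is not that of its coding transcript. The kilobase on 5′ ends was not poor in CpG, the dinucleotide of many open promoters: it held 63 CpG in the median of the 10 genes and 41 over all, with Tcf7 the richest at 111 and Gata3 the poorest at 35.

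Introns held peaks in 5 of 10 genes without density gradient centrifugation and in 7 of 10 in the 50 µL reaction system, where 18.4% and 41% of the 20477 genes with introns had one. Long introns collect more peaks, so the number was also taken per length: over all 10 genes there were 0.121 intronic peaks per 10 kb of intron without density gradient centrifugation and 1.00 in the 50 µL reaction system, against 0.0722 and 0.373 over all genes. Per gene, the 50 µL value was highest in Tcf7 (2.14 per 10 kb), Bcl11b (1.65), Lef1 (1.52) and Satb1 (1.15). It was lower in Gata3 (0.690), Tbx21 (0.677) and Tox (0.605), and Eomes, Foxp3 and Id3 had no intronic peak.

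Flanking peaks away from promoters of other coding genes were found at 9 of 10 genes without density gradient centrifugation and at all 10 in the 50 µL reaction system, against 53.7% and 76.6% of all genes. Foxp3 was the gene with none in the first library. Their density was 0.120 per 10 kb without density gradient centrifugation, close to the 0.112 of all genes, and 0.780 per 10 kb in the 50 µL reaction system, against 0.442. Satb1 with 17 and Id3 with 16 such peaks in the 50 µL reaction system stood at the 99.2 and 98.8 percentiles of all genes, whereas Bcl11b with 1 stood at 27.5.

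**Figure D2:**
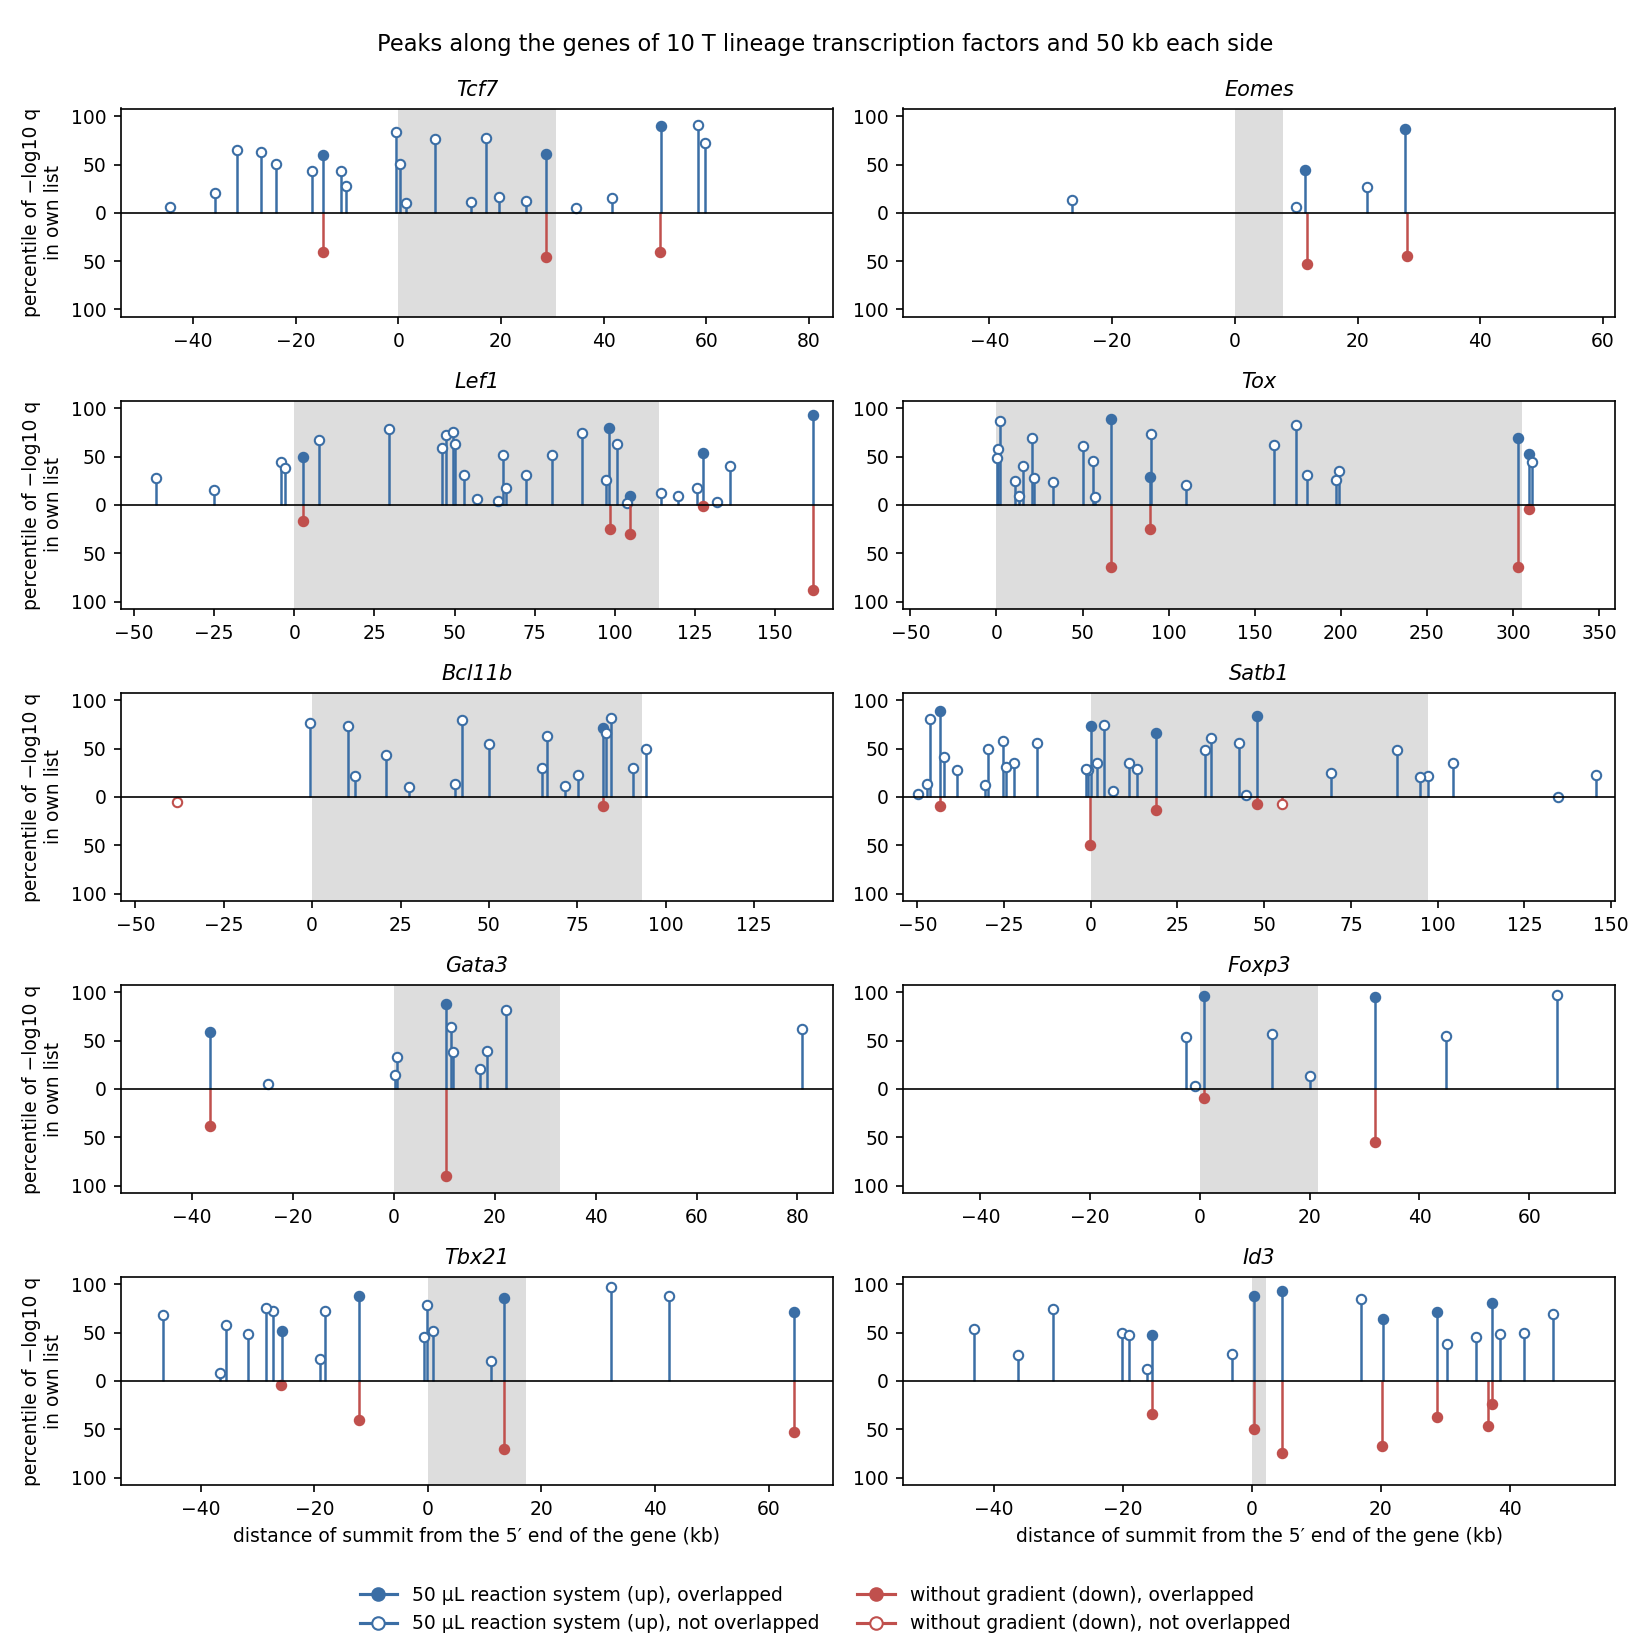
Peaks of each gene by the distance of the summit from the annotated 5′ end in the direction of transcription (horizontal axis, kb; grey, gene body) and by percentile of −log10 q within the own list (vertical axis); 50 µL peaks point up, peaks without density gradient centrifugation point down, and filled circles overlap a peak of the other library. Of 36 downward peaks 34 are filled, and of 189 upward peaks 33 are filled.

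With the lists as deposited, nearly every member peak of the shorter list recurred in the longer one. Of the 36 peaks without density gradient centrifugation, 34 overlapped a 50 µL peak by at least 1 bp (94.4%, 81.3 to 99.3%), against 95.3% of the whole list. The share depended on the lists and the overlap asked for: it fell to 17 of 36 (47.2%, whole list 68.4%) against the 25343 most significant 50 µL peaks, to 13 of 27 (48.1%, 62.8%) at a fold enrichment of at least 4 in both lists, and to 23 of 36 (63.9%, 54.2%) where the overlap had to cover 50% of each peak. These differences from the whole list were not tested. The exceptions were a peak at −38.2 kb of Bcl11b (fold enrichment 4.25) and one in an intron of Satb1 (3.65), both among the least significant of the list, in the top 94.3% and 93.1%. Fold enrichment was higher without density gradient centrifugation in 28 of the 34 pairs (82.4%), against 78.8% of all 24140 pairs, with medians of 4.93 and 3.73. The 50 µL peak was the wider one in 30 pairs (88.2%, all pairs 92.6%), with a median of 474 bp against 290 bp. A 50 µL peak that overlapped more than 1 peak of the shorter list, as at Id3, counts in each of its pairs. Summits lay 38 bp apart in the median (all pairs 50 bp), and in 24 pairs within 100 bp (70.6%, all pairs 74.0%). The members thus lay near the whole list in these pair shares and in the overlap of the lists as deposited. They lay below it with lists of equal length and at a fold enrichment of at least 4, and above it with 50% reciprocal overlap.

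In the other direction most member peaks had no counterpart. Of their 189 peaks in the 50 µL reaction system, 33 overlapped a peak of the other library (17.5%, 12.3 to 23.6%), against 26.3% of all 50 µL peaks and 27.1% of those in windows of protein-coding genes. Split by significance, in the top 25% of the 50 µL list, 15 of 34 member peaks recurred (44.1%, 27.2 to 62.1%) against 68.9% of all, and below it 11.6% against 12.1%. Promoters recur more often than other peaks, so they were set apart: at no coding promoter 7 of 21 member peaks of the top 25% recurred (33.3%, 14.6 to 57%) against 59.4% of all such peaks, and at a coding promoter 8 of 13 (61.5%, 31.6 to 86.1%) against 81.8%. These are shares within 1 pair of libraries, peaks of 1 gene are not independent, and the difference was not tested.

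Other regulators were counted in the same way, leaving out peaks at promoters of neighbouring coding genes. In the top 25% of the 50 µL list, 9 of 27 peaks of the 10 T lineage factors recurred without density gradient centrifugation (33.3%, 16.5 to 54%). The share was 33 of 60 (55%, 41.6 to 67.9%) for 18 other T cell regulators such as Runx1, Ets1 and Ikzf1, 32 of 62 (51.6%, 38.6 to 64.5%) for 10 B lineage factors such as Pax5 and Ebf1, and 14 of 23 (60.9%, 38.5 to 80.3%) for 11 myeloid factors such as Spi1. The 4 intervals overlap each other. Promoter peaks without density gradient centrifugation were at 6 of 10 T lineage factors, 8 of 18 other T cell regulators, 6 of 10 B lineage factors and 6 of 11 myeloid factors, and in the 50 µL reaction system at 9, 17, 10 and 11 of them.

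**Figure D3:**
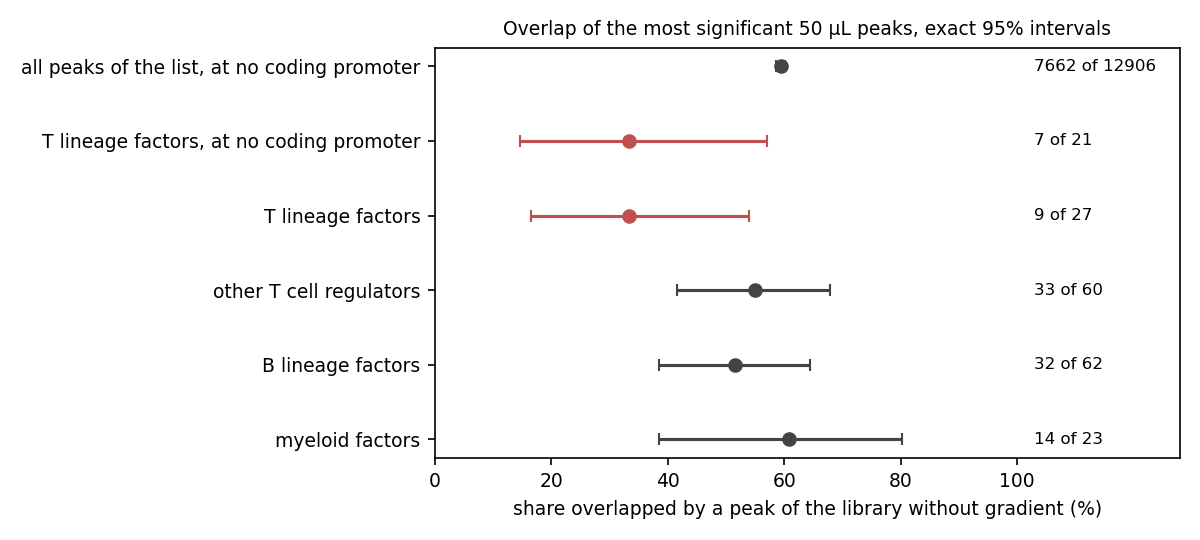
Share (horizontal axis, %) of 50 µL peaks in the top 25% of their list that overlap a peak of the library without density gradient centrifugation, with exact 95% intervals for counting error; named lists leave out peaks at promoters of other coding genes unless the row says at no coding promoter. The T lineage factors stood at 33.3% and the other lists between 51.6 and 60.9%, with intervals that overlap. At no coding promoter, all peaks stood at 59.4% and the T lineage factors at 33.3% (14.6 to 57%). The intervals treat peaks of the same gene as independent, which they are not, and this difference was not tested.

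Tcf7 (chr11:52252371-52283014, minus strand, mm10) had 3 peaks without density gradient centrifugation and 23 in the 50 µL reaction system. Positions below are distances of the summit from the annotated 5′ end, negative upstream, and 2 fold enrichments joined by "and" are those without density gradient centrifugation and in the 50 µL reaction system. Its promoter was covered only in the 50 µL reaction system, by peaks at −0.498 kb (4.47, top 16.2%), 0.341 kb (3.02) and 1.60 kb (2.24). All 3 peaks of the other library recurred: one in the last part of the gene body at 28.8 kb (5.93 and 3.57), one upstream at −14.6 kb (5.38 and 3.37) and one at 50.9 kb on the promoter of Skp1a, a subunit of a ubiquitin ligase (4.96 and 4.63). The most significant 50 µL peak of the window, at 58.4 kb downstream (5.22, top 9.23%), and intronic peaks at 17.1 kb (4.04) and 7.23 kb (3.81) had no counterpart.

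Lef1 (chr3:131110471-131224356, plus strand) had 5 and 31 peaks. No peak of either library came within 1 kb of its 5′ end, from which 3 coding transcripts start, and the promoter peak of both lists lay at 2.82 kb (3.50 and 2.51), between internal start sites. Of its 16 intronic 50 µL peaks, those at 98.2 kb (4.43, top 19.9%) and 29.5 kb (4.21, top 21.3%) were the most significant, and the first recurred without density gradient centrifugation (4.95), as did a weaker one at 104.7 kb (5.09 and 2.53). The most significant peak of the window in both lists was on the promoter of Hadh, an enzyme of fatty acid oxidation, at 161.7 kb (6.80, top 11.4%, and 5.24, top 7.38%).

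Bcl11b (chr12:107910403-108003602, minus strand) had 2 and 17 peaks, and 14 of the 17 were intronic. Its promoter was covered in the 50 µL reaction system alone, at −0.579 kb (4.48, top 23.2%). The intronic peaks at 84.6 kb (4.80, top 18.2%) and 42.3 kb (5.74, top 20.3%) exceeded the promoter peak on −log10 q, and neither recurred. The single intronic peak without density gradient centrifugation, at 82.2 kb (4.52, top 90.2%), did recur (3.95). Apart from the promoter peak, the 50 µL reaction system had no peak in the 50 kb upstream of the gene, and the only flanking one lay at 94.5 kb, just past the 3′ end (4.00).

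Gata3 (chr2:9857078-9890034, minus strand) had 2 and 11 peaks, of which 1 and 6 were promoter peaks. The strongest in both lists was the same, at 10.3 kb, upstream of the internal coding start site of Gata3-201 (6.35, top 9.42%, and 4.21, top 12.0%), and the summits lay 1 bp apart. At the 5′ end proper, where the neighbour 9230102O04Rik also starts, the 50 µL peaks were weak, at 0.241 kb (2.70, top 85.9%) and 0.587 kb (3.11, top 67.4%). The other 50 µL promoter peaks of the gene were at its internal start sites, at 11.3 kb (3.06), 11.8 kb (2.50) and 17037 bp (2.40). Intronic 50 µL peaks at 22.3 kb (4.77, top 18.4%) and 18.5 kb (2.71) and a downstream one at 80.9 kb (4.51) had no counterpart, and a peak at −36.3 kb inside Taf3 was found in both (5.48 and 3.71).

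Satb1 (chr17:51736187-51833290, minus strand), with 12 annotated start positions, had 5 and 33 peaks, a total for the 50 µL reaction system at the 98.8 percentile of all genes. Its 5′ end was open in both libraries, at −0.141 kb without density gradient centrifugation and −0.031 kb in the 50 µL reaction system (4.27 and 2.78), as was an internal start site at 18.9 kb (3.41 and 2.70), where the 50 µL peak was 1367 bp wide, the widest of all 189. The other 50 µL promoter peaks of Satb1 had fold enrichments of 2.76 at 3.71 kb, 2.07 at 1.74 kb, 2.03 at −0.676 kb and 1.84 at 6.48 kb, the last being the lowest of all 189 member peaks. The most significant 50 µL peaks were neither of these but a flanking peak at −43.4 kb (3.75, top 11%) and an intronic one at 48.1 kb (3.76, top 16.6%). Both recurred without density gradient centrifugation, near the bottom of that list (3.39, top 90.2%, and 3.59, top 92.7%).

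Tbx21 (chr11:97098071-97115331, minus strand) had 4 and 18 peaks, and 1 annotated start site. Without density gradient centrifugation its promoter had no peak, and its strongest peak, with the highest fold enrichment of all 36, was exonic at 13.4 kb (7.18; 5.19 in the 50 µL reaction system). In the 50 µL reaction system the promoter had 3 peaks, at −0.128 kb (4.15, top 21.6%), 0.907 kb (3.07) and −0.754 kb (2.94). All 4 peaks of the shorter list recurred, the other 3 of them at −12.1 kb (5.23 and 4.25, top 12.0%), inside Tbkbp1 at −25.8 kb (3.65 and 2.58) and on the promoter of Osbpl7 at 64.5 kb (6.07 and 4.09). Downstream, 2 peaks of the 50 µL reaction system at 32.2 kb (8.48, top 3.14%) and 42.5 kb (6.84, top 11.8%) were among its strongest member peaks and had no counterpart.

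Eomes (chr9:118478212-118486132, plus strand) was the only gene with no promoter, exonic or intronic peak in either library. Its 2 and 5 peaks were all flanking. The peak at 11.7 kb, within 1 kb of a start site of the non-coding gene Gm33460, had fold enrichments of 6.10 and 3.34, and that at 28.0 kb, on the promoter of the Golgi protein gene Golga4, 5.43 and 5.11. The summits of these pairs were 312 and 267 bp apart, so overlap here did not mean the same summit.

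Tox (chr4:6686353-6991557, minus strand), the longest gene of the set at 305.2 kb, had 4 and 24 peaks, of which 2 and 18 were intronic. Near its 5′ end the 50 µL reaction system had peaks at 1.80 kb (4.51, top 13.0%), 0.763 kb (3.12) and 200 bp (2.94), and the other library none. The promoter peak that both shared lay at the far end of the gene, 302.7 kb in, at the start of the non-coding transcript Tox-202 and of Gm11802 (6.88 and 5.02). Its flanking peaks lay downstream, at 309.3 kb in both lists (3.90 and 4.08) and at 311.3 kb in the 50 µL reaction system alone (3.78).

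Foxp3 (chrX:7573644-7595245, plus strand) had 2 and 8 peaks and no intronic one. Its promoter peak in both lists lay near the first annotated start, at 0.778 kb without density gradient centrifugation (4.52, top 90.2%) and 0.843 kb in the 50 µL reaction system (5.27, top 3.38%). This position is within 1 kb of Ppp1r3f, a regulator of glycogen metabolism, and of the non-coding gene Flicr, so it cannot be assigned to Foxp3 alone, and the same holds for a weak 50 µL peak at −0.885 kb (1.96). Values can be tied within a list: without density gradient centrifugation this Foxp3 peak and the intronic peak of Bcl11b have the same fold enrichment and the same −log10 q of 5.41. Ties also occur in the 50 µL list, where an exonic and an intronic peak of Bcl11b share a fold enrichment of 3.40 with a −log10 q of 8.94. Neither list had a peak within 1 kb of the start sites 5923 to 6839 bp into the gene, from which 7 further transcripts begin. A weak exonic peak (2.98) and one at 13.1 kb near an internal start (4.25) completed the gene body in the 50 µL reaction system. The strongest flanking peaks were on neighbouring promoters, at 31.8 kb on Ccdc22 (6.38 and 6.50) and at 65.1 kb on Syp, which encodes synaptophysin (8.79, top 3.15%, 50 µL alone).

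Id3 (chr4:136143497-136145755, plus strand), the shortest gene at 2.26 kb, had 7 and 19 peaks, the most of any member without density gradient centrifugation. Its promoter peak was at 0.305 and 0.387 kb (4.36, top 49.9%, and 3.55, top 12.2%). A flanking peak at 4.61 kb was more significant than the promoter in both lists (5.27, top 25.9%, and 4.09, top 7.14%, 1007 bp wide). All 7 peaks of the shorter list recurred, among them those at 20.2 kb (5.81 and 3.37) and −15.5 kb (4.88 and 2.69), and 3 of them lay on promoters of E2f2, a cell cycle regulator. The peaks at chr4:136180048-136180275 and chr4:136180568-136180847 overlapped the same 50 µL peak, with summits 604 and 112 bp from its summit. A 50 µL peak at 16.9 kb (4.66, top 14.9%) did not recur.

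The sequences under these summits were read from RefSeq's GRCm38.p6, the assembly of mm10, in windows of 200 bp. Printed first are 7 windows of peaks named above, shown because peaks of several genes hold the same motif. Those of Bcl11b and Tbx21 did not recur, and the others did, although at Tcf7 and Eomes the overlapping 50 µL peak did not reach the motif marked. Their capitals mark a match to the 12-base core of the motif of CTCF, a zinc finger protein that binds at domain borders and insulators, with 7 fixed bases. This core was added to the motifs searched after the sequences had been seen. It was found in 9 of the 36 member windows without density gradient centrifugation (25%), against 14.4% of all windows of that list and 1.77% of windows 2 kb away from its summits. The 6 windows from Tcf7 to Id3 are of that library, and the last, of Tbx21, is of the 50 µL reaction system.
Tcf7, intron, 28.8 kb, chr11:52254090-52254289, + strand: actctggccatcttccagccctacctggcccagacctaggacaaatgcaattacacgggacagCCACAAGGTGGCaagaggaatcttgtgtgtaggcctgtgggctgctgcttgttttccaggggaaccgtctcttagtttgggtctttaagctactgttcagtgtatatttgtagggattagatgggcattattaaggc
Lef1, intron, 104.7 kb, chr3:131215042-131215241, + strand: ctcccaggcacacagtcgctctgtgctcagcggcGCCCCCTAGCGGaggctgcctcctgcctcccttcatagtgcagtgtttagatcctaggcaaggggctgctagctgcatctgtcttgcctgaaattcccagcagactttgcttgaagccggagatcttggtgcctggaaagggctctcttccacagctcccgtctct
Bcl11b, upstream, −38.2 kb, chr12:108041679-108041878, + strand: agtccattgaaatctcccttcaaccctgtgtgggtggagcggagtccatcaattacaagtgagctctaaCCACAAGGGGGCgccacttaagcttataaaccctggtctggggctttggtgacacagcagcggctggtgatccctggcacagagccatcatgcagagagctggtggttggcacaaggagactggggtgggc
Eomes, downstream, 11.7 kb, chr9:118489826-118490025, + strand: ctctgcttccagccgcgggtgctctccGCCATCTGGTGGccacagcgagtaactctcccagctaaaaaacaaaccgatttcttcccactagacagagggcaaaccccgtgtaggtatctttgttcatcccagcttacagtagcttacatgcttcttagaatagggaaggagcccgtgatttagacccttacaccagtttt
Tox, start of Tox-202, 302.7 kb, chr4:6688759-6688958, + strand: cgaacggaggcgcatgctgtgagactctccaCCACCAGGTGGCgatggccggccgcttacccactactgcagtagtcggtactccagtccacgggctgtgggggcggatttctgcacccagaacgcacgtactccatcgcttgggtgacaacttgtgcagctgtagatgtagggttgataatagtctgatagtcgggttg
Id3, downstream, 20.2 kb, chr4:136163635-136163834, + strand: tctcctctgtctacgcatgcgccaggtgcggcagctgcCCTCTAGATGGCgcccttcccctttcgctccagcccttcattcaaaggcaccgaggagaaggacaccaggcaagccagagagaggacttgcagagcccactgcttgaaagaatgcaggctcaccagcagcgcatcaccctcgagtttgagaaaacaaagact
Tbx21, downstream, 32.2 kb, chr11:97083054-97083253, + strand: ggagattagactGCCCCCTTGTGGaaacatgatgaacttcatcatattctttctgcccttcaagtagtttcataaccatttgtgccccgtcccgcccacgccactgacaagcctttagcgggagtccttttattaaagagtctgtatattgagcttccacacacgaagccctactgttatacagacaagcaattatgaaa

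The core lies on either strand in these windows. In every printed window it is off centre to the same side, at lower coordinates than the summit. Among member peaks at no coding promoter, the core lay in 8 of 21 without density gradient centrifugation (38.1%), against 20.0% of all such peaks. The same count was 8 of 62 (12.9%) for the other T cell regulators, 8 of 56 (14.3%) for the B lineage factors and 3 of 18 (16.7%) for the myeloid factors. The core was chosen after member sequences had been seen, and peaks of the same gene are not independent. These differences were not tested. By recurrence, it lay in 7 of the 34 member peaks that recurred and in both that did not, of Bcl11b and Satb1, and in 0 of the 2 in the top 25% of the list. In the 50 µL reaction system it was found in 8 of 189 member windows (4.23%), against 5.61% of all windows, and 4 of the 8 were near Tbx21. At no coding promoter it lay there in 6 of 151 member peaks (3.97%), against 6.24% of all such peaks. The other T cell regulators, B lineage factors and myeloid factors had 8 of 330 (2.42%), 9 of 271 (3.32%) and 7 of 78 (8.97%). Windows were centred on the summit of each list. A site can therefore fall in the window of one list and outside that of the other, as at Id3. At Tcf7 and Eomes the printed core lay outside the overlapping 50 µL peak itself.

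A second group of summits carried other matches, which are in capitals: CTTTGA for TCF/LEF together with the overlapping TGANTCA of AP-1 in Gata3, AGGAAG of ETS and TGTGGT of RUNX (as its reverse complement) in Bcl11b, and CAGNTG, the E-box bound by E proteins, with AGGTGT of T-box factors in Satb1. Gata3 is shown as its most significant peak in both lists, Satb1 as a distal peak found in both, and Bcl11b as a strong intronic peak of the 50 µL reaction system alone. Here the window of Bcl11b is of the 50 µL reaction system, and the rest are of the library without density gradient centrifugation.
Gata3, internal promoter, 10.3 kb, chr2:9879667-9879866, + strand: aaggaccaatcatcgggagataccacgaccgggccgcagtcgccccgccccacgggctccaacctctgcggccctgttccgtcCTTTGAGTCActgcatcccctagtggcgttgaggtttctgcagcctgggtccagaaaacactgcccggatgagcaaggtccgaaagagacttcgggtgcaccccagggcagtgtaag
Satb1, upstream, −43.5 kb, chr17:51876661-51876860, + strand: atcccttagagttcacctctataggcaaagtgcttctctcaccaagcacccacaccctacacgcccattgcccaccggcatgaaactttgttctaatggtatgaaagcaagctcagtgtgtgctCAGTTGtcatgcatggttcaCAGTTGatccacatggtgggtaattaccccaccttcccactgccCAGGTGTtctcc
Bcl11b, intron, 42.3 kb, chr12:107961247-107961446, + strand: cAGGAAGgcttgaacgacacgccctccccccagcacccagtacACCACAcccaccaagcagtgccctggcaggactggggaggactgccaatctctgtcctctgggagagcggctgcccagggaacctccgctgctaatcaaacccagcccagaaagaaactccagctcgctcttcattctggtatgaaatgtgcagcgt

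Promoter windows of the members were richer in CpG than their other windows, with medians of 13 and 6 CpG per 200 bp without density gradient centrifugation and 7.5 and 3 in the 50 µL reaction system, where the whole lists had 4 and 2. Repeats, as soft-masked in the reference, covered 8.86% of member promoter windows and 11.1% of the others on average without density gradient centrifugation, and 11.2% and 24.3% in the 50 µL reaction system, against 10.8% and 24.5% over the whole lists.

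Counted over all windows and both strands, the shares of these motifs at the members lay on both sides of those over all windows. TCF/LEF (CTTTGA) was in 3 of 36 member windows without density gradient centrifugation (8.33%, all windows 11.6%) and in 31 of 189 in the 50 µL reaction system (16.4%, 12.6%). RUNX (TGTGGT) was in 5 (13.9%, 16.4%) and 32 (16.9%, 18.4%), and T-box (AGGTGT) in 5 (13.9%, 10.8%) and 22 (11.6%, 11%). ETS (CCGGAA or AGGAAG) was in 11 (30.6%, 41.3%) and 60 (31.7%, 33.9%), below the whole list without density gradient centrifugation. AGATAA, searched for GATA factors, was in 2 (5.56%, 6.78%) and 14 (7.41%, 9.72%), AP-1 (TGANTCA) in 2 (5.56%, 5.02%) and 12 (6.35%, 5.39%), and E-box (CAGNTG) in 14 (38.9%, 41.1%) and 61 (32.3%, 36.8%). A match describes letters in a window and does not show that a factor was bound. T-box and E-box letters overlap where CAGGTGT occurs, as in the window of Satb1, and a RUNX match can overlap the CTCF core, as in that of Bcl11b at −38.2 kb.

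**Figure D4:**
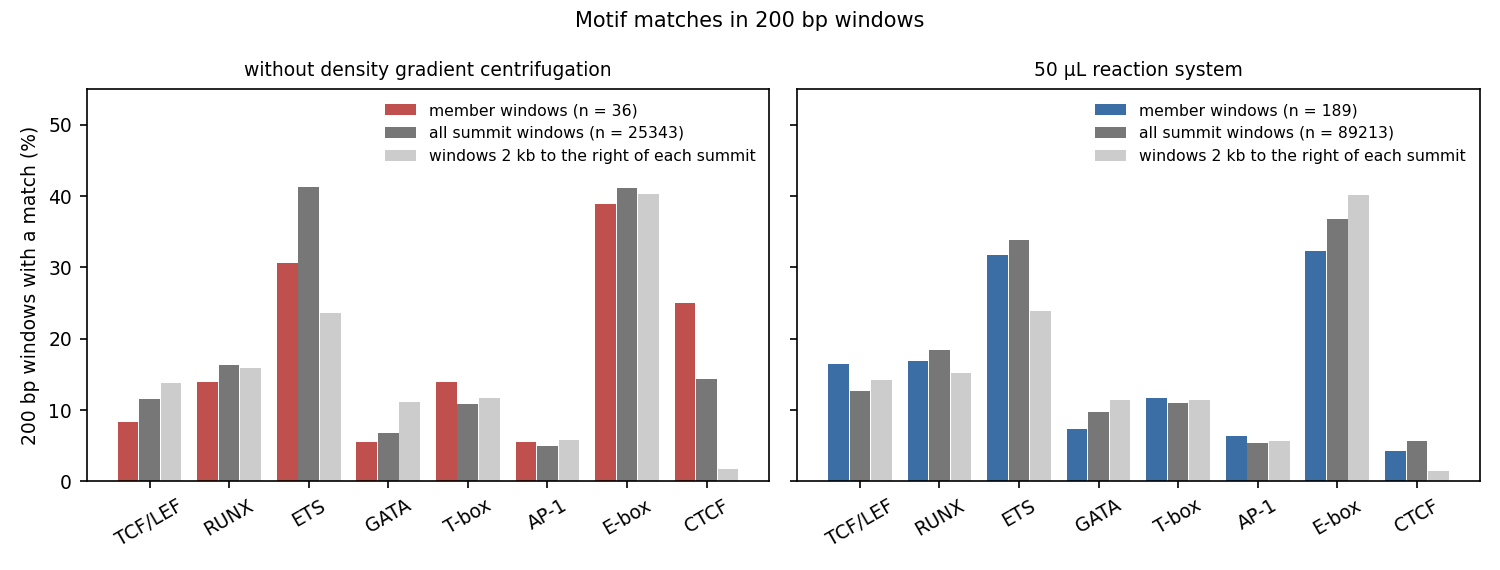
Share of 200 bp windows with at least 1 match (vertical axis, %) for each motif: coloured bars, windows at summits of member peaks; dark grey, all summits of the list; light grey, windows 2 kb to the right of each summit. The CTCF core stands at 25% of member windows, 14.4% of all windows and 1.77% of the shifted windows without density gradient centrifugation, and at 4.23, 5.61 and 1.52% in the 50 µL reaction system. This core was added after the sequences had been seen, and no difference was tested.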

How the data were processed

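Per the methods, the authors mapped reads with BWA mem (v0.7.17; mm10), used samtools (v1.17) for sorting, dropped duplicates, ran MACS2 (v2.1.2; no model, shift of 0, q-value 0.01) on each library and took out blacklisted regions by bedtools (v2.30.0). The sources do not say whether low-quality barcodes entered the peak calls. A shift of 0 does not centre reads on the Tn5 insertion, so summits can lie off it. The size of this offset was not measured, and a 200 bp window can miss a motif because of it. The deposited lists give a display score (not used), a fold enrichment (a ratio of pileup to local background), −log10 p and −log10 q values of each summit. Peaks were classed against GENCODE vM21 in the order promoter, exonic, intronic, flanking; shared peaks overlapped by at least 1 bp; motif letters on either strand were counted in 200 bp windows centred on summits. Intervals are exact (Clopper-Pearson, 95%). No test was made, with 1 library per condition. Member genes, lists and alternatives were chosen with earlier results of these data known. Peaks named were taken from the promoter peaks and the most significant intronic and flanking peaks of each gene, not all of which are given; others, such as peaks found in both libraries or in 1 alone and the printed sequences, were picked after their values were seen. One peak and its sequence are not reported here by themselves. Classification and overlap were tested on simulated peaks. Software: Python 3.11.15 (scipy 1.17.1, pandas 2.3.3, numpy 2.4.6; figures with matplotlib 3.10.9).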

Additional observations from a re-analysis of the deposited data

How the results depend on the processing

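Of 70 recomputed values, 53 stayed within 1.5 times the value given, or for the shares within its interval, and 17 did not. Counting the 5′ end alone left 3 genes with a promoter peak and 3 promoter peaks without density gradient centrifugation (6 and 7 with every TSS) and 15 promoter peaks in the 50 µL reaction system (28). Flanks of 20 kb and 100 kb gave 10 and 45 flanking peaks without density gradient centrifugation (20 at 50 kb) and 38 and 176 in the 50 µL reaction system (88). A fold enrichment of at least 4 left 8 promoter, 13 intronic and 17 flanking peaks in the 50 µL reaction system, and its 25343 most significant peaks held 9, 14 and 19 of the 28, 66 and 88. The share of peaks without density gradient centrifugation that overlapped a 50 µL peak was 100% at a −log10 q above 5 (whole list 95.5%), 48.1% at a fold enrichment of at least 4 (62.8%), 47.2% with lists of equal length (68.4%) and 63.9% with 50% reciprocal overlap (54.2%), against 94.4% (95.3%). Other promoter windows and summit positions moved no count past this limit. No paired analysis was possible because each condition had 1 library and no test was run.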
